A study of Homo sapiens with 12 samples.

Results

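SnoRNA host genes are transcription units whose introns carry small nucleolar RNAs. They were read here as every gene of the deposited table whose symbol is SNHG followed by a number, together with GAS5, ZFAS1, DANCR, EPB41L4A-AS1 and TAF1D. That rule used names and no measured value, and it found 29 of the 55771 genes in the table. Of these, 28 are annotated as non-coding and 1, TAF1D, codes for a protein. They lie on 14 chromosomes, and 26 of them reached the level needed for a test (10 or more in 4 or more of the 12 libraries), as did 20454 genes of the whole table.

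A host gene is transcribed and spliced like a messenger RNA. The snoRNA is trimmed out of a debranched intron and assembled with its core proteins, and it then guides 2′-O-methylation (box C/D class) or pseudouridylation (box H/ACA class) of ribosomal RNA, or, for a few, cleavage of the ribosomal precursor. The spliced exons of many non-coding hosts reach the cytoplasm, are translated over a short frame and are degraded by nonsense-mediated decay (NMD). Many hosts begin, like ribosomal protein genes, with a run of pyrimidines at the 5′ end. Small Cajal body RNAs, which guide the modification of spliceosomal RNAs, are carried in introns in the same way.

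The libraries came from KELLY, an established human neuroblastoma line with amplified MYCN. Cells received one of 3 morpholino oligonucleotides as complexes with a DNA leash and a lipid: BPS1 (4 libraries), BPS2 (4 libraries) or a control oligonucleotide (4 libraries). All groups shared the line, 24 h in 10% serum, a move to 4% serum, a dose of 50 nM and lysis 48 h later, so an effect of transfection itself is also in the control. The series was made to ask how transcripts change when NEAT1_2, the long isoform of the paraspeckle scaffold RNA NEAT1, is raised. The BPS2 columns were matched by sample title, because the description of these samples reads KPAS, and 1 BPS1 column is spelled BSP1. Whether replicates were separate cultures is not stated in the labels, and the p-values here are set against a spread between libraries that could be technical alone.

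NEAT1, a single row that cannot separate its isoforms, averaged 2024 ± 420 in BPS1, 4262 ± 412 in BPS2 and 6879 ± 264 in control libraries (normalized count, SD, n = 4 each). Library totals were 29.6 to 33.3 M normalized counts. Of 10 sympathoadrenal markers, all were detected in all libraries, with MYCN at 71302 to 92957. Of 9 markers of other cell types, PTPRC and KRT18 stayed below 10 everywhere and ALB reached 15.3 at most. The other 6 reached the test level: the collagen genes COL1A1 (699 to 1080) and COL1A2 (87.1 to 237), the endothelial genes PECAM1 (12.3 to 54.6) and CDH5 (2.57 to 19.5), the epithelial EPCAM (7.64 to 34.5) and the macrophage gene CD68 (3.39 to 18.5). In BPS1, 5 of the 10 sympathoadrenal markers fell and 1 rose against control (limma, adjusted p under 0.05), where 4.32% of all tested genes were called lower and 4.29% higher. In BPS2, 1 of the 10 fell, where 1.21% of all genes were called in either direction, and COL1A1 rose by 0.46 ± 0.07 (adjusted p = 0.00706). With BPS1 replicate 4 and control replicate 1 left out, 2 libraries whose host values are described further on, 7 of the 10 fell and 1 rose in BPS1, where 7.33% of all genes were called lower and 6.42% higher, and 4 fell and 2 rose in BPS2, where 3.76% were called lower and 5.78% higher. Their part in the host gene results was not tested. In bulk RNA, fewer cells making a transcript and less of it per cell cannot be told apart.

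The start regions of 5 host genes are shown because SNHG3, GAS5 and ZFAS1 had the smallest adjusted p-values, while SNHG1 and SNHG16 had the highest mean normalized counts, not divided by length, of the non-coding hosts that passed no test with all libraries. SNHG14, whose RefSeq start lies 154975 bases upstream of its GENCODE start, is not shown. Each run is 300 bases of RefSeq sequence on the gene's own strand (build GRCh38.p14), and the capitals mark the last 50 bases, from the annotated start onward. They lie at chr1:28505693-28505992 (plus strand), chr1:173868996-173869295 (minus strand), chr20:49278392-49278691 (plus strand), chr11:62855836-62856135 (minus strand) and chr17:76557514-76557813 (plus strand).
SNHG3: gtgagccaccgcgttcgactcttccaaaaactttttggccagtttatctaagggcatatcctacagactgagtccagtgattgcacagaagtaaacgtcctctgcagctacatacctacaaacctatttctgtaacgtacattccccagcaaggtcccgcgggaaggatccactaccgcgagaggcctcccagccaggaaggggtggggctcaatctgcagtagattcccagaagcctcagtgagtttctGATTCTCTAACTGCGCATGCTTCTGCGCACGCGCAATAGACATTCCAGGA
GAS5: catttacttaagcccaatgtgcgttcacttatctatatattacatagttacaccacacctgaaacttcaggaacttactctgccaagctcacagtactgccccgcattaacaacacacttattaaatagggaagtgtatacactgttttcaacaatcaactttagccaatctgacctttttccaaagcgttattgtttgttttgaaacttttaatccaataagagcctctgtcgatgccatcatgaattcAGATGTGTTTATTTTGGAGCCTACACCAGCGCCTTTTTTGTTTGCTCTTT
ZFAS1: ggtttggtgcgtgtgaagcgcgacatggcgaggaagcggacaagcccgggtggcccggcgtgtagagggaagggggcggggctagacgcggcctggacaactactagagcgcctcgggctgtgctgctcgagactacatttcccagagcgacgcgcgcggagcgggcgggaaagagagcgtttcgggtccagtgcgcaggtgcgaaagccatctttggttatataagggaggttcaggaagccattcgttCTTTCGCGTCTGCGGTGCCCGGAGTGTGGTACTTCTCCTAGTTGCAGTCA
SNHG1: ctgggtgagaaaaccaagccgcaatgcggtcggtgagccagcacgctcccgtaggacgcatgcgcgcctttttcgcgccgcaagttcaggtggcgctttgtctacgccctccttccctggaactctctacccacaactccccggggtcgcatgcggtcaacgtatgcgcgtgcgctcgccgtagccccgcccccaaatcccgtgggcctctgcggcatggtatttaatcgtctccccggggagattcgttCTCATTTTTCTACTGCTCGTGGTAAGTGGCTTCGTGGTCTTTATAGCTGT
SNHG16: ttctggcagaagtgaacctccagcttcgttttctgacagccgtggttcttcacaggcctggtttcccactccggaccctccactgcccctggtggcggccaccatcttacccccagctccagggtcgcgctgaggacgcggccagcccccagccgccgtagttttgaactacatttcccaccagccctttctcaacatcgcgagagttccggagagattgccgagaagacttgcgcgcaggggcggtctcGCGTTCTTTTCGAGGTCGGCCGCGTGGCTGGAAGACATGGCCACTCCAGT

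ZFAS1 begins with C and at least 4 pyrimidines in a row, the letters of a 5′ terminal oligopyrimidine start, and TATAA lies within the 40 bases before its start. SNHG3 and GAS5 show neither in these windows. Among the 25 hosts with a RefSeq start region, 7 opened with C and at least 4 pyrimidines (SNHG4, SNHG5, SNHG12, SNHG18, SNHG19, TAF1D and ZFAS1), against 4.07% of all 35116 start regions. TATAA on the gene's strand stood in the 40 bases before the start of 6 hosts and of 4.34% of all start regions. CACGTG, the palindromic E-box bound by MYC family proteins, was found over the 300 bases in 1 host, SNHG7, and in 7.26% of all start regions. These matches depend on the annotated start, which for GAS5 lies 163 bases upstream, and for ZFAS1 downstream, of the start in GENCODE release 29, the annotation used for positions here.

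Also shown are 3 snoRNAs carried by hosts that fell in BPS1, from GENCODE release 29 coordinates on GRCh38. SNORA73A and SNORA73B, the U17 snoRNAs, lie in introns of SNHG3 at chr1:28507366-28507571 and chr1:28508559-28508762 and act in processing of the 18S ribosomal RNA precursor. Capitals mark the ACA box, which is followed by 3 bases. SNORD12B lies inside ZFAS1 at chr20:49280319-49280409, with capitals on box C (TGATGA) and box D (CTGA). All 3 are on the plus strand.
SNORA73A: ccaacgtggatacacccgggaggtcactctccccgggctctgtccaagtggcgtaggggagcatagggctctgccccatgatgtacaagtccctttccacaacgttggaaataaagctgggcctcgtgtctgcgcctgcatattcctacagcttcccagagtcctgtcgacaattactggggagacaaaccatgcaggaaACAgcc
SNORA73B: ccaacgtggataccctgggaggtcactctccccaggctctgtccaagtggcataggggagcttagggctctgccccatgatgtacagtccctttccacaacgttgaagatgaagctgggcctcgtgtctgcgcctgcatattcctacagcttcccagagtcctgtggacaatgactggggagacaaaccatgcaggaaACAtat
SNORD12B: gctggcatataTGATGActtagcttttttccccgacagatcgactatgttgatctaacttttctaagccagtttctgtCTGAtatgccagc
SNORA73A and SNORA73B share 192 of 206 aligned bases (93.2%), so reads of one could be counted for the other.

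By what they carry, 10 of the 29 hosts hold named snoRNAs of the H/ACA class alone, 9 of the C/D class alone and 3 of both, while 4 hold small Cajal body RNAs. One, SNHG28, holds an unnamed small RNA. In release 29 no gene of type snoRNA or small Cajal body RNA was found inside GAS5 or SNHG27 on the same strand. That lookup does not show that these hosts carry none, and the class counts rest on it. The tested hosts had a median transcript length of 785 bases, against 1037 over all tested genes, and a median GC content of 48.8%, against 49.2%. They had 1 to 29 annotated transcripts, and among the tested hosts SNHG19 alone, which has 1 transcript, had values in whole multiples of 1 read in all libraries (tolerance 0.001 read). The other tested hosts had values that were not whole multiples in all libraries. Whether these were scaled per gene and library or hold fractions of reads was not tested. Their values could depend on how reads were assigned to isoforms or between overlapping genes.

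Levels spanned a wide range. Per kilobase of the median transcript, the control mean was highest for GAS5 (20357), a small-exon RNA known for binding the glucocorticoid receptor, followed by SNHG1 (8015), host of the U22 family of C/D snoRNAs, SNHG5 (6411), TAF1D (5721), a subunit of the RNA polymerase I selectivity factor, and SNHG16 (5640). It was lowest among tested hosts for SNHG26 (54.4) and SNHG18 (8.25). Of the 25 pairs of neighbours in this order, 13 lay closer together than the larger of their 2 SDs per kilobase, among them TAF1D (SD 528) and SNHG16 (SD 162). Below the test level, SNHG22 averaged 7.55 in BPS1, 5.72 in BPS2 and 10.9 in control libraries, SNHG27 averaged 0.956 in BPS1, 0.765 in BPS2 and 1.01 in control libraries, and SNHG28 was listed at 0 throughout. The 29 hosts together took 0.194% ± 0.0162 of all normalized counts in BPS1, 0.214% ± 0.00683 in BPS2 and 0.219% ± 0.0126 in control libraries (SD, n = 4 each).

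In these genes 2 libraries, BPS1 replicate 4 and control replicate 1, differed from the rest of their groups. BPS1 replicate 4 was the highest of its group in 22 of the 26 tested hosts, against 40.4% of all tested genes, and lay a median of 0.57 (log2) above the other BPS1 libraries. Control replicate 1 was the highest of its group in 21 of 26, against 35.0% of all tested genes, and lay a median of 0.38 above the other control libraries. For the other 10 libraries the same median was between -0.12 and 0.07. Across all tested genes, deviation from each gene's median over all 12 libraries was also set against GC content. The rho was 0.32 in BPS1 replicate 4 and 0.16 in control replicate 1, against -0.21 to 0.18 in the others. Genes share a library and are not independent, and differences between the groups are part of this deviation. The part of GC content in the host values was not tested beyond the corrected fits given in the closing section. Results are therefore given with all 12 libraries and without these 2. The 2 were left out after their host values were seen, and p-values without them take no account of that choice. Leaving out the highest library of a group also lowers the group's mean and can narrow its spread.

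**Figure D1:**
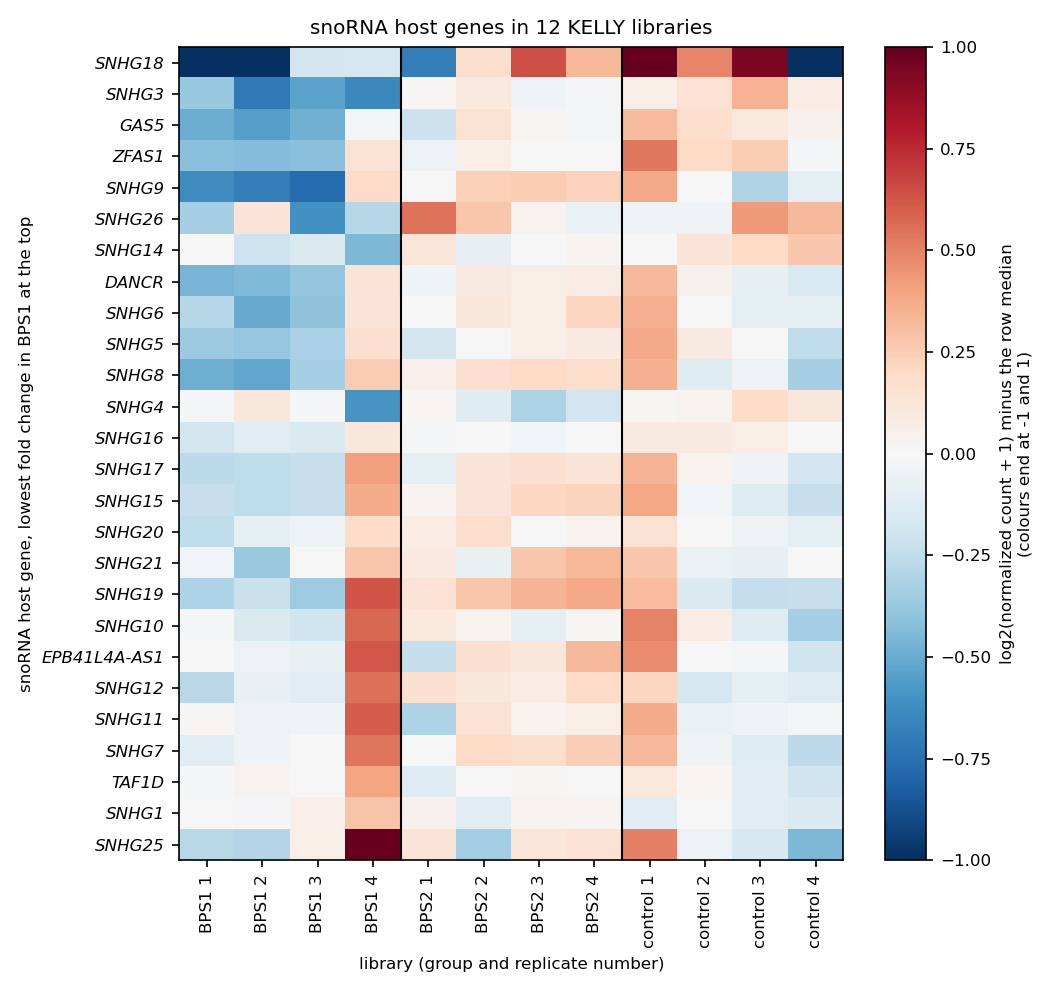
Levels of the 26 tested snoRNA host genes (rows, lowest fold change in BPS1 at the top) in the 12 libraries (columns, BPS1 left, BPS2 middle, control right), as log2(normalized count + 1) minus the row's median. BPS1 replicates 1 to 3 are blue in SNHG3, GAS5, ZFAS1, SNHG9, DANCR, SNHG6, SNHG5 and SNHG8, while BPS1 replicate 4 and control replicate 1 are red in most rows.

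With BPS1, 4 of the 26 tested hosts fell and 0 rose against the control oligonucleotide (limma, Benjamini-Hochberg adjusted p under 0.05 over all 20454 genes, two-sided). The 4 were SNHG3, GAS5, ZFAS1 and SNHG14, and their drops ranged from -0.73 to -0.35 on the log2(value + 1) scale. Over all tested genes, 4.32% were called lower in BPS1. Of the 26 hosts, 17 had a fold change below 0, with a median of -0.13 against -0.00 for all genes.

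SNHG3, host of SNORA73A and SNORA73B (chromosome 1, 28505980 to 28510892, plus strand), had normalized counts of 2749, 2186, 2462 and 2287 in BPS1 libraries, 3596, 3827, 3474 and 3542 in BPS2 libraries and 3742, 3957, 4543 and 3762 in control libraries. Every BPS1 library lay below every BPS2 and every control library, and BPS1 replicate 4 was within the range of its group. SNHG3 fell by 0.73 ± 0.09 (log2, SE) in BPS1, 0.605 times the control level (limma adjusted p = 0.000233). It passed with each of the 12 libraries left out in turn, with an adjusted p of at most 0.00144.

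GAS5, growth arrest specific 5 (chromosome 1, 173863900 to 173868882, minus strand), had 8851, 8539, 8966 and 12363 in BPS1 libraries, 10787, 13906, 12604 and 12405 in BPS2 libraries and 15609, 14110, 13453 and 12850 in control libraries. BPS1 replicates 1 to 3 lay close together, BPS1 replicate 4 was higher, and no BPS1 library reached a control library. GAS5 fell by 0.55 ± 0.12 in BPS1 (0.685 times control, limma adjusted p = 0.0112), and by 0.62 ± 0.07 without the 2 libraries (adjusted p = 0.000325). It passed in all 12 omissions of a single library.

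ZFAS1, the antisense RNA beside ZNFX1 and host of SNORD12 family snoRNAs (chromosome 20, 49278178 to 49295738, plus strand), had 1518, 1502, 1524 and 2244 in BPS1 libraries, 1952, 2118, 2025 and 2042 in BPS2 libraries and 2931, 2336, 2428 and 2017 in control libraries. BPS1 replicate 4 overlapped control replicate 4, and the other 3 BPS1 libraries lay below every control library. ZFAS1 fell by 0.53 ± 0.13 in BPS1 (0.695 times control, limma adjusted p = 0.0290). It passed in 6 of 12 omissions and did not pass without BPS1 replicate 1, 2 or 3 or control replicate 1, 2 or 3, with an adjusted p of up to 0.0836. Without the 2 libraries it fell by 0.57 ± 0.07 (adjusted p = 0.000294).

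SNHG14, the long imprinted transcript of the Prader-Willi and Angelman region that carries the SNORD116 and SNORD115 arrays (chromosome 15, 24978583 to 25419462, plus strand), had 3786, 3287, 3444 and 2775 in BPS1 libraries, 4131, 3590, 3783 and 3868 in BPS2 libraries and 3811, 4163, 4366 and 4569 in control libraries. The BPS1 and control libraries did not overlap, and BPS1 replicate 4 was here the lowest of its group. SNHG14 fell by 0.35 ± 0.09 in BPS1 (0.783 times control, limma adjusted p = 0.0344). It passed in 5 of 12 omissions and did not pass without BPS1 replicate 2 or 3, BPS2 replicate 3 or 4, or control replicate 2, 3 or 4 (adjusted p up to 0.0919). Without the 2 libraries together it fell by 0.32 ± 0.07 (adjusted p = 0.00908).

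**Figure D2:**
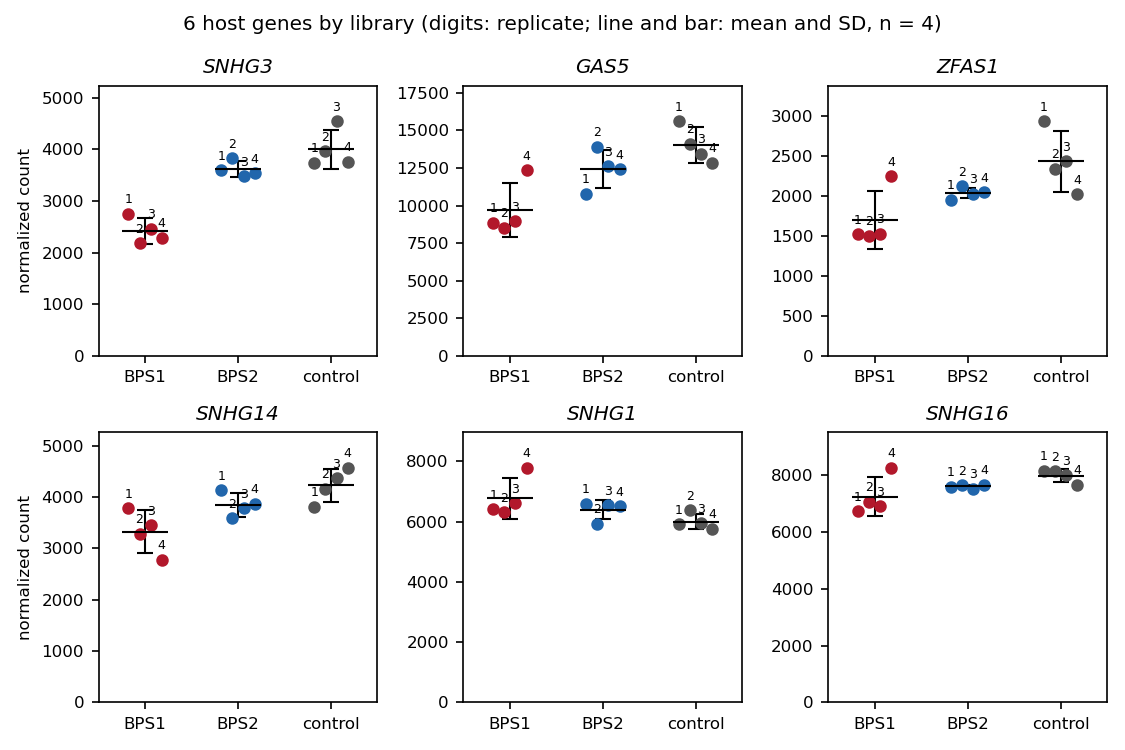
Normalized counts of 6 host genes in each library (points, with the replicate number above), with the group mean and SD (n = 4), BPS1 left, BPS2 middle and control right, each axis starting at 0. SNHG3, GAS5 and SNHG14 show no overlap between BPS1 and control libraries, ZFAS1 overlaps through BPS1 replicate 4, and SNHG1 and SNHG16 overlap.

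SNHG1, the second most abundant host per kilobase, had 6405, 6319, 6600 and 7785 in BPS1 libraries, 6595, 5934, 6545 and 6509 in BPS2 libraries and 5910, 6367, 5935 and 5767 in control libraries. The groups overlapped, and BPS1 replicate 4 was the highest library. Between BPS1 and control libraries it differed by 0.17 ± 0.07, with a 95% interval of 0.01 to 0.33 (limma adjusted p = 0.183). SNHG16, whose introns carry SNORD1 family snoRNAs, had 6726, 7065, 6913 and 8261 in BPS1 libraries, 7599, 7646, 7523 and 7662 in BPS2 libraries and 8157, 8130, 7991 and 7658 in control libraries. BPS1 replicates 1 to 3 were the 3 lowest libraries and BPS1 replicate 4 the highest, and the fold change was -0.15 ± 0.07 (adjusted p = 0.213).

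Of the other H/ACA hosts, DANCR, an RNA named for antagonizing differentiation that carries SNORA26, averaged 2097 ± 451 in BPS1, 2611 ± 108 in BPS2 and 2605 ± 394 in control libraries (SD, n = 4 each), with a BPS1 fold change of -0.32 ± 0.13 (adjusted p = 0.165). SNHG9, a short host of SNORA78 beside RPS2, averaged 77.6 ± 27.5 in BPS1, 118 ± 9.80 in BPS2 and 105 ± 21.7 in control libraries, with a fold change of -0.47 ± 0.21 (adjusted p = 0.198). SNHG8 averaged 932 ± 254 in BPS1, 1218 ± 55.5 in BPS2 and 1088 ± 228 in control libraries. SNHG15 averaged 2813 ± 650 in BPS1, 3254 ± 201 in BPS2 and 2978 ± 588 in control libraries, and SNHG17 averaged 2538 ± 642 in BPS1, 2792 ± 215 in BPS2 and 2725 ± 434 in control libraries. In all 5 the BPS1 SD was the largest of the 3 groups and BPS1 replicate 4 was the highest BPS1 library. SNHG7 averaged 2994 ± 669 in BPS1, 3080 ± 225 in BPS2 and 2741 ± 503 in control libraries. SNHG4 averaged 826 ± 162 in BPS1, 800 ± 77.5 in BPS2 and 941 ± 52.5 in control libraries, and BPS1 replicate 4, at 589, was the lowest library. SNHG11 averaged 382 ± 92.5 in BPS1, 340 ± 45.3 in BPS2 and 359 ± 56.0 in control libraries, and EPB41L4A-AS1, which carries SNORA13, averaged 889 ± 226 in BPS1, 858 ± 136 in BPS2 and 846 ± 179 in control libraries.

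Of the other C/D hosts, SNHG5, which carries SNORD50 family members, averaged 3551 ± 709 in BPS1, 4087 ± 334 in BPS2 and 4308 ± 793 in control libraries. SNHG6, host of SNORD87, averaged 1783 ± 366 in BPS1, 2262 ± 145 in BPS2 and 2193 ± 350 in control libraries. Their BPS1 fold changes were -0.28 ± 0.14 (SNHG5, adjusted p = 0.273) and -0.31 ± 0.13 (SNHG6, adjusted p = 0.197). SNHG19, whose intron carries SNORD60, averaged 206 ± 76.2 in BPS1, 253 ± 17.5 in BPS2 and 199 ± 38.8 in control libraries. SNHG26 averaged 44.1 ± 9.81 in BPS1, 61.2 ± 11.9 in BPS2 and 59.8 ± 10.1 in control libraries (BPS1 fold change -0.44 ± 0.19, adjusted p = 0.201). SNHG18 averaged 4.10 ± 2.17 in BPS1, 8.03 ± 3.12 in BPS2 and 10.9 ± 6.29 in control libraries. It had the fold change farthest from 0 of all hosts, -1.09, and the widest interval, -2.23 to 0.05 (adjusted p = 0.247).

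Of the hosts of both classes, SNHG12 averaged 1029 ± 284 in BPS1, 1086 ± 38.0 in BPS2 and 966 ± 123 in control libraries. SNHG25 averaged 142 ± 72.5 in BPS1, 121 ± 18.4 in BPS2 and 119 ± 35.4 in control libraries, and TAF1D averaged 6482 ± 933 in BPS1, 5862 ± 267 in BPS2 and 5818 ± 537 in control libraries. All 3 had BPS1 fold changes above 0 that did not pass: 0.06 (SNHG12), 0.18 (SNHG25) and 0.15 (TAF1D). Of the Cajal body RNA hosts, SNHG10 averaged 404 ± 109 in BPS1, 384 ± 22.5 in BPS2 and 396 ± 102 in control libraries, and SNHG20 averaged 1073 ± 138 in BPS1, 1163 ± 62.0 in BPS2 and 1114 ± 84.8 in control libraries. SNHG21 averaged 138 ± 25.2 in BPS1, 156 ± 19.5 in BPS2 and 143 ± 17.2 in control libraries. The fold changes of these 3 in BPS1 lay between -0.06 and 0.03.

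Without control replicate 1 and BPS1 replicate 4, 25 hosts were tested and 9 fell in BPS1 with 0 rising, where 7.33% of all 20161 tested genes were called lower. SNHG3, GAS5, ZFAS1 and SNHG14 were among them. The other 5 were SNHG9 (-0.56 ± 0.13, adjusted p = 0.0157), DANCR (-0.37 ± 0.06, adjusted p = 0.00237), SNHG6 (-0.33 ± 0.07, adjusted p = 0.0103), SNHG5 (-0.30 ± 0.09, adjusted p = 0.0435) and SNHG16 (-0.20 ± 0.04, adjusted p = 0.00515). Each of these 5 lay farther below 0 than with all libraries, and its SE was smaller. Leaving out BPS1 replicate 4 alone also gave 9 calls, where 1311 of 20341 tested genes were called lower. Leaving out BPS1 replicate 2 or 3 or control replicate 2 or 3 gave 2, GAS5 and SNHG3. In these fits 556 to 602 of all tested genes were called lower. SNHG4, in which BPS1 replicate 4 was low, had -0.08 ± 0.09 without the 2 libraries and -0.21 ± 0.13 with all.

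With BPS2, 0 of the 26 hosts passed against control by limma and 0 had an unadjusted p under 0.05, where 1.21% of all genes were called in either direction. The fold changes ran from -0.24 (ZFAS1 and SNHG18) to 0.36 (SNHG19), with a median of 0.03. SNHG3 had -0.14 ± 0.09 (adjusted p = 0.571), GAS5 had -0.17 ± 0.12 (adjusted p = 0.628) and SNHG14 had -0.14 ± 0.09 (adjusted p = 0.644). With control replicate 1 and BPS1 replicate 4 left out, 5 hosts rose in BPS2 and 0 fell, where 5.78% of all genes were called higher: SNHG19 (0.49 ± 0.09, adjusted p = 0.00869), SNHG8 (0.31 ± 0.08, adjusted p = 0.0320), SNHG7 (0.30 ± 0.07, adjusted p = 0.0229), SNHG15 (0.27 ± 0.06, adjusted p = 0.0195) and SNHG12 (0.26 ± 0.06, adjusted p = 0.0283). For these 5, control replicate 1 was the highest control library. Leaving out any single library, control replicate 1 included, gave 0 host calls in BPS2, where 77 to 355 of all tested genes were called higher. Library weights in a fit of all 12 gave 1, SNHG19, where 788 of 20454 genes were called higher. The BPS1 and BPS2 comparisons share the control libraries.

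BPS2 and BPS1 were also compared directly, which does not use the control means. SNHG3 was higher in BPS2 by 0.58 ± 0.09, 1.50 times the BPS1 level (limma adjusted p = 0.00194), and it was the only host of 26 called, where 2.30% of all genes were called higher in BPS2. It passed in all 12 omissions (adjusted p up to 0.0102). The median over the hosts was 0.20, and 19 of 26 lay above 0. GAS5 had 0.37 ± 0.12 (adjusted p = 0.104), SNHG9 had 0.65 ± 0.21 (adjusted p = 0.109) and ZFAS1 had 0.28 ± 0.13 (adjusted p = 0.307).

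Between the 10 remaining libraries, 13 of 25 hosts were higher in BPS2 than in BPS1 and 0 were lower, where 10.5% of all genes were called higher. SNHG9 (0.87 ± 0.12, adjusted p = 0.000825), SNHG8 (0.60 ± 0.08, adjusted p = 0.000632), SNHG19 (0.58 ± 0.09, adjusted p = 0.00149), SNHG3 (0.56 ± 0.08, adjusted p = 0.00119) and GAS5 (0.49 ± 0.07, adjusted p = 0.000879) had the fold changes farthest from 0. The others were SNHG6, DANCR, ZFAS1, SNHG15, SNHG5, SNHG17, SNHG12 and SNHG16, between 0.14 and 0.49. The median was 0.29. Leaving out BPS1 replicate 4 alone gave 8 calls, where 1122 of 20341 tested genes were called higher in BPS2. Leaving out control replicate 1 alone gave 1, SNHG3, where 537 of 20301 genes were called higher in BPS2. The count of hosts thus rests on BPS1 replicate 4, and the count of 13 on both libraries, while the call for SNHG3 rests on neither. SNHG14, which fell in BPS1 against control, had 0.13 ± 0.06 here (adjusted p = 0.168).

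**Figure D3:**
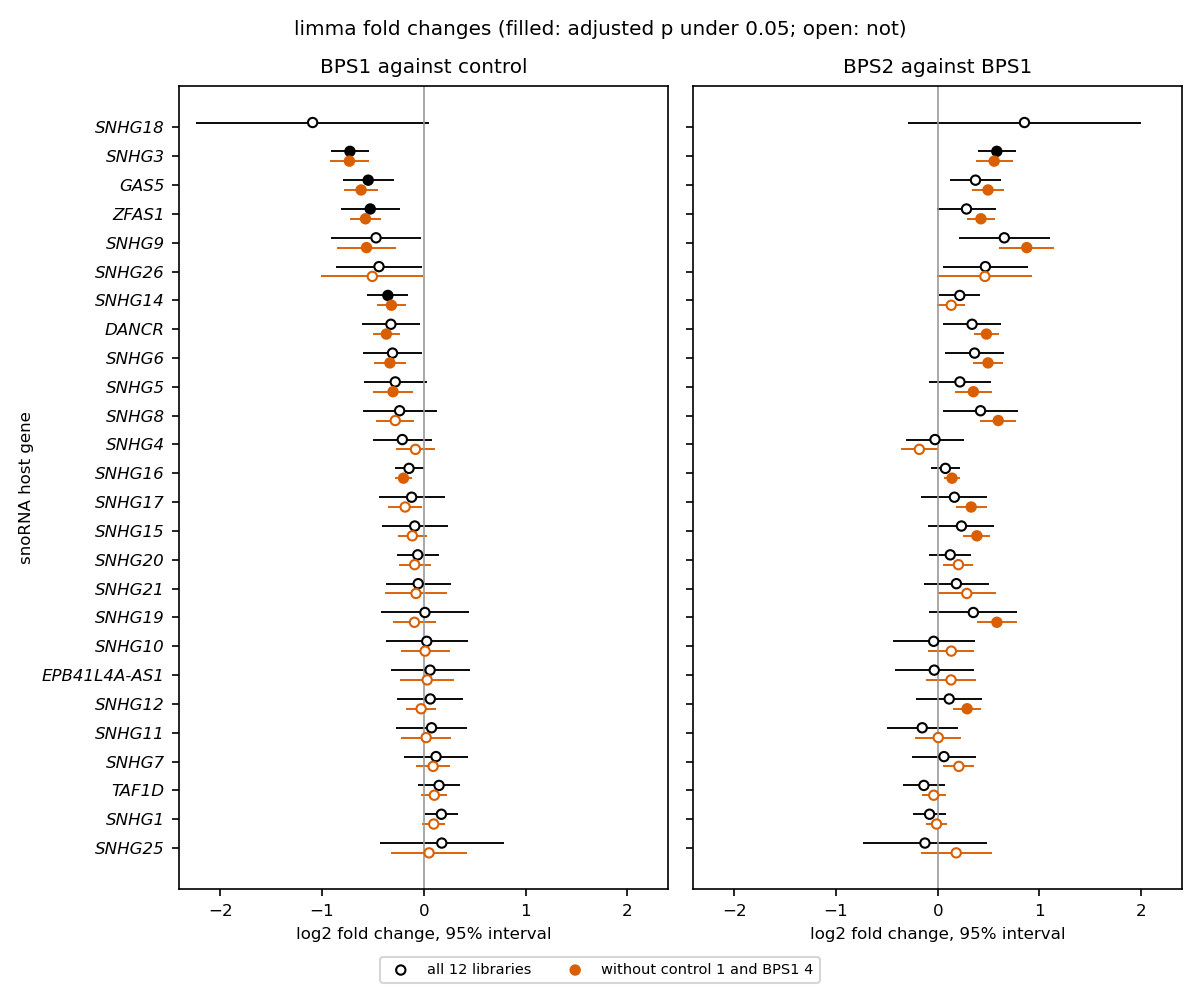
Log2 fold changes of the tested host genes with 95% intervals for BPS1 against control (left) and BPS2 against BPS1 (right), from limma with all 12 libraries (black) and without control replicate 1 and BPS1 replicate 4 (orange), filled where the adjusted p was under 0.05. SNHG3 is filled in both panels and both fits. In the right panel 13 orange points and 1 black point are filled.

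Several hosts share a start region with another gene. For 9 tested hosts, another tested gene started within 1000 bases, on the opposite strand in 8 of them. None of these 9 neighbours was called in BPS1, where 8.60% of all tested genes were called in either direction. Without the 2 libraries 0 were called, where the share was 13.7%. With all libraries the fold changes of the 9 lay between -0.09 and 0.11. ZNFX1, which starts 248 bases from ZFAS1 and codes for a zinc finger helicase, averaged 936 ± 74.2 in BPS1, 923 ± 43.8 in BPS2 and 939 ± 23.9 in control libraries. Its BPS1 fold change was -0.01 ± 0.08, while ZFAS1 fell. ZBTB37, 800 bases from GAS5, had 0.01 ± 0.20. RCC1, the nucleotide exchange factor for RAN, starts 37 bases from SNHG3 on the same strand and spans all of it. RCC1 averaged 4449 ± 485 in BPS1, 4944 ± 253 in BPS2 and 4558 ± 414 in control libraries, with a BPS1 fold change of -0.04 ± 0.09. Because RCC1 and SNHG3 overlap on 1 strand, reads of shared exons could be assigned to either.

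**Figure D4:**
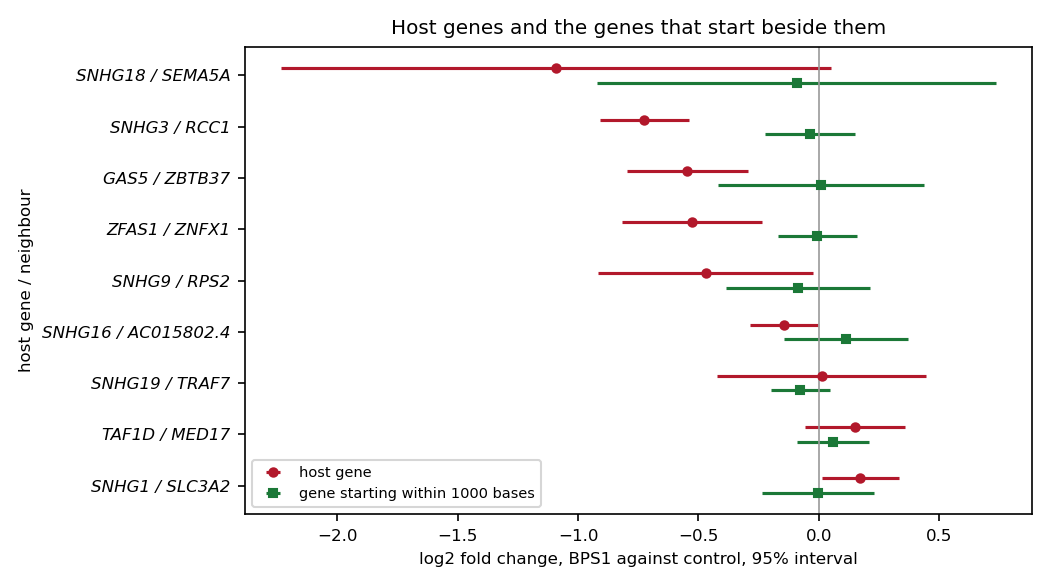
Log2 fold change of BPS1 against control, with 95% intervals, for 9 host genes (red circles) and the gene that starts within 1000 bases of each (green squares). SNHG3, GAS5 and ZFAS1 lie below 0 and RCC1, ZBTB37 and ZNFX1 lie between -0.04 and 0.01.

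Among all 33 tested genes that overlap a host or have a start or end near it, 3 were called in BPS1, where 8.60% of all tested genes were called in either direction, and they are named here after their values were seen. In BPS2 1 of the 33 was called, where 1.21% of all genes were called in either direction. In BPS2 against BPS1 it was also 1 of the 33, where 3.93% of all genes were called. With the 2 libraries left out, 4 were called in BPS1 (13.7% of all genes), 7 in BPS2 (9.54%) and 10 in BPS2 against BPS1 (17.4%). UBE3A, the ubiquitin ligase lost in Angelman syndrome, is transcribed against SNHG14 and overlaps its annotated span by 85735 bases. UBE3A had 4290, 4730, 4411 and 3844 in BPS1 libraries, 4065, 4046, 4052 and 3826 in BPS2 libraries and 3283, 3585, 3530 and 3619 in control libraries. Every BPS1 and BPS2 library lay above every control library. It rose by 0.30 ± 0.07 in BPS1 (limma adjusted p = 0.0186), the opposite direction to SNHG14, and had 0.19 ± 0.07 in BPS2 (adjusted p = 0.289). The BPS1 call was lost without BPS1 replicate 2 or 3 (adjusted p up to 0.0579). With the 2 libraries left out, UBE3A rose by 0.32 ± 0.05 in BPS1 (adjusted p = 0.00129) and by 0.16 ± 0.04 in BPS2 (adjusted p = 0.0478), and was lower in BPS2 than in BPS1 (-0.16 ± 0.04, adjusted p = 0.0292).

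AC105339.2, a non-coding RNA that overlaps SNHG21 on the same strand by 4323 bases, had 210, 199, 228 and 200 in BPS1 libraries, 314, 350, 271 and 291 in BPS2 libraries and 388, 325, 332 and 339 in control libraries. Every BPS1 library lay below every other library. It fell by 0.72 ± 0.10 in BPS1 (adjusted p = 0.000925) and was 0.54 ± 0.10 higher in BPS2 than in BPS1 (adjusted p = 0.00967), while SNHG21 had -0.05 ± 0.15 in BPS1. PRSS12, a secreted protease gene next to SNHG8, rose by 0.80 ± 0.17 in BPS1 (adjusted p = 0.0112) and by 0.78 ± 0.17 in BPS2 (adjusted p = 0.0462, passing in 2 of 12 omissions), while SNHG8 had -0.24 ± 0.17 in BPS1.

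The small RNAs inside the hosts were measured as rows of their own. Of 145 small RNA genes annotated inside hosts on the same strand, 139 had a row, 81 were listed at 0 in all libraries and 17, in 11 hosts, reached the test level. All 17 came in whole multiples of 1 read, and their means over the 12 libraries were 10.9 to 130, so a single library rests on few reads. Reads of unspliced host RNA that fall inside a small RNA cannot be told apart from its own. None of the 17 was called by limma in BPS1, in BPS2 or in BPS2 against BPS1 (unadjusted p under 0.05 in 3, 1 and 2 of them). Of all tested genes, 8.60%, 1.21% and 3.93% were called in these comparisons in either direction. In BPS1, 11 of 17 lay below 0, with a median of -0.15. With the 2 libraries left out, 1 of the 17 was called in each comparison: SCARNA13 in BPS1, SNORA8 in BPS2 and SNORA73B in BPS2 against BPS1. The shares of all tested genes called in either direction were then 13.7%, 9.54% and 17.4%. SNORA8, inside TAF1D, averaged 13.1 ± 2.88 in BPS1, 15.4 ± 2.94 in BPS2 and 10.1 ± 7.93 in control libraries, where control replicate 1 had 21.4. In BPS2 it had 0.80 ± 0.41 with all libraries (adjusted p = 0.495) and 1.22 with the 2 left out (adjusted p = 0.0400).

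Inside SNHG3, SNORA73B had 25.5, 37.6, 32.1 and 42.6 in BPS1 libraries, 46.6, 53.1, 45.6 and 62.2 in BPS2 libraries and 50.8, 41.3, 38.2 and 52.4 in control libraries. Every BPS1 library lay below every BPS2 library, and BPS1 and control libraries overlapped. Between BPS1 and control libraries it differed by -0.41 ± 0.19 (adjusted p = 0.220), beside -0.73 for SNHG3, and 0.59 ± 0.19 in BPS2 against BPS1 (adjusted p = 0.112), beside 0.58 for SNHG3. SNORA73B was 0.70 higher in BPS2 than in BPS1 once the 2 libraries were left out (adjusted p = 0.0283). SNORA73A had -0.24 ± 0.27 in BPS1 (adjusted p = 0.652). SNORD12B inside ZFAS1 averaged 11.3 ± 1.87 in BPS1, 8.34 ± 1.91 in BPS2 and 13.0 ± 5.76 in control libraries, with a BPS1 fold change of -0.12 ± 0.30.

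SCARNA13, a small Cajal body RNA inside SNHG10, had 85.2, 65.8, 63.2 and 124 in BPS1 libraries, 43.6, 53.1, 50.8 and 49.0 in BPS2 libraries and 68.1, 45.2, 47.0 and 32.5 in control libraries. BPS1 libraries lay above every BPS2 library and overlapped the control libraries through control replicate 1. SCARNA13 differed by 0.79 ± 0.24 between BPS1 and control libraries (limma adjusted p = 0.0586), and by 0.77 without the 2 libraries (adjusted p = 0.0190), while SNHG10 had 0.03. Inside SNHG14, 19 of 83 rows were above 0 in any library and the highest row mean was 3.96, so the SNORD116 and SNORD115 arrays could not be followed.

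**Figure D5:**
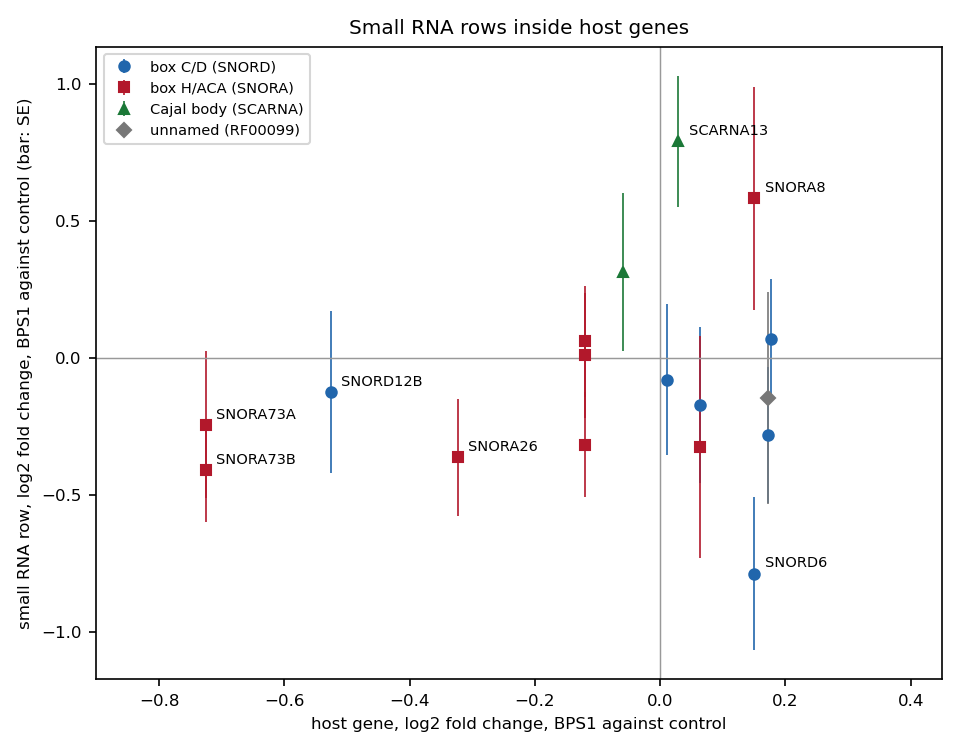
Log2 fold change in BPS1 against control of the 17 tested small RNA rows (vertical axis, bars are SE) against that of their host gene (horizontal axis), coloured by class. Both SNORA73 rows lie at the left with SNHG3, and SCARNA13 lies highest, at 0.79, with its host at 0.03.

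Genes of the surrounding pathways were read from 4 lists. Of 17 tested NMD factors, 2 rose and 1 fell in BPS1, with a median of 0.07, where 4.29% of all genes were called higher and 4.32% lower. RNPS1, an exon junction component, rose by 0.30 ± 0.07 (limma adjusted p = 0.0255), and DHX34, a helicase that acts with UPF1, rose by 0.43 ± 0.12 (adjusted p = 0.0468, passing in 2 of 12 omissions). NBAS, which acts in NMD at the endoplasmic reticulum and in vesicle transport, had 1551, 1544, 1646 and 2233 in BPS1 libraries, 2723, 3172, 3023 and 2942 in BPS2 libraries and 3400, 2842, 2753 and 2513 in control libraries. No BPS1 library reached a BPS2 or control library. NBAS fell by 0.73 ± 0.12 in BPS1 (adjusted p = 0.00264) and was 0.78 ± 0.12 higher in BPS2 than in BPS1 (adjusted p = 0.00297). UPF1, the central NMD helicase, had -0.22 ± 0.10 in BPS1 (adjusted p = 0.216). With all 12 libraries no NMD factor passed in BPS2 against control (limma), where 1.21% of all genes were called in either direction. With the 2 libraries left out, 3 of the 17 rose and 1 fell in BPS1, with NBAS the one that fell and DHX34 no longer called (adjusted p = 0.0614). Of all genes, 6.42% were then called higher and 7.33% lower in BPS1. SMG6, the NMD endonuclease, then rose by 0.24 ± 0.07 in BPS2 (adjusted p = 0.0426), and 2 factors were higher and 2 lower in BPS2 than in BPS1, where 10.5% and 6.88% of all genes were called.

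Of 17 tested transcripts known as NMD targets, 2 rose and 2 fell in BPS1, with a median of 0.03, against the same shares of all genes. ATF3, a stress-induced transcription factor, rose by 0.68 ± 0.11 in BPS1 (adjusted p = 0.00172) and by 0.91 ± 0.11 in BPS2 (adjusted p = 0.00108), where it was the only one called with all 12 libraries. TBL2 rose by 0.43 ± 0.08 (adjusted p = 0.00448) in BPS1 and was 0.32 lower in BPS2 than in BPS1 (-0.32 ± 0.08, adjusted p = 0.0407, passing in 3 of 12 omissions). SESN1 (-0.44 ± 0.12, adjusted p = 0.0341, passing in 6 of 12 omissions) and the splicing factor gene SRSF2 (-0.37 ± 0.08, adjusted p = 0.0163, lost without BPS1 replicate 2 or 3) fell in BPS1. With the 2 libraries left out, 3 of the 17 rose and 2 fell in BPS1, and SESN1 was not called. Of all genes, 6.42% were then called higher and 7.33% lower in BPS1. In BPS2 4 then rose and 0 fell, where 5.78% of all genes were called higher: ATF3, the stress-response transcription factor gene DDIT3 (0.67, adjusted p = 0.0166), the growth-arrest gene GADD45A (0.56, adjusted p = 0.000708) and the uridine phosphorylase gene UPP1 (0.83, adjusted p = 0.00652). Between BPS2 and BPS1, 6 were then higher and 1 lower, where 10.5% of all genes were called higher and 6.88% lower.

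Of 22 tested snoRNP core and assembly genes, 0 were called by limma in BPS1, BPS2 or between them, with medians of 0.07, 0.04 and -0.04. Of all genes, 8.60%, 1.21% and 3.93% were called in either direction. FBL, the 2′-O-methyltransferase of C/D particles, had 0.13 ± 0.15 in BPS1, and DKC1, the pseudouridine synthase of H/ACA particles, had 0.02 ± 0.06. Without the 2 libraries 3 of the 22 were higher in each comparison and 0 lower, where 6.42% (BPS1), 5.78% (BPS2) and 10.5% (BPS2 against BPS1) of all genes were called higher.

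Of 43 tested protein-coding snoRNA hosts, 2 rose and 1 fell in BPS1, where 4.29% of all genes were called higher and 4.32% lower, with a median of -0.14, beside -0.13 for the non-coding hosts and TAF1D. RPS3, a ribosomal protein host, fell by 0.53 ± 0.13 (adjusted p = 0.0217, lost without BPS1 replicate 1, 2 or 3 or control replicate 2). EIF4A2, a translation initiation helicase, rose by 0.40 ± 0.07 in BPS1 (adjusted p = 0.00355) and by 0.52 ± 0.07 in BPS2 (adjusted p = 0.00307), and TCP1, a chaperonin subunit, rose by 0.36 ± 0.08 in BPS1 (adjusted p = 0.0109). Without the 2 libraries 21 of the 43 fell and 4 rose in BPS1, where 7.33% of all genes were called lower and 6.42% higher. In BPS2 1 fell and 5 rose, where 3.76% were called lower and 5.78% higher. Between BPS2 and BPS1, 28 were higher and 2 lower, where 10.5% were called higher and 6.88% lower.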

How the data were processed

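Total RNA of 12 KELLY libraries was depleted of ribosomal RNA, prepared with a stranded kit and sequenced as 100-base single reads, with a stated mean of 25 M, per the labels' protocols. Salmon 0.8.2, FastQC 0.11.7, DESeq2 (version not given in the sources used here) and build GRCh38 are named in the submitters' processing notes. The deposited values are a normalized signal, 1 normalized count per gene and library, made by the authors. The annotation release they used is not given in the sources used here. Whole reads were not recovered for most genes, so no count test was run, and the precision of a value beyond the replicate spread is not known.

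Values were taken as log2(value + 1) for genes with at least 10 in at least 4 libraries, and limma 3.58.1 (R 4.3.3) was fitted to all 12 libraries with a shared variance trend. P-values were adjusted by Benjamini-Hochberg over all genes tested (threshold 0.05). Fold changes on this scale understate those of low genes. The alternatives tried were other pseudocounts, filters, scalings, variance settings, library weights, a replicate block and left-out libraries. In simulated data for BPS1 against control (20206 genes), the test recovered 43 of 100 genes with a 1.5-fold change and 84 of 100 with a 2-fold change. Among 132 calls 5 were false. The residuals were shuffled gene by gene, so shifts shared by the genes of a library were absent. Changed genes were drawn only from genes of higher mean level. These counts therefore do not give the error or recovery of the real data. Between replicates, chi-square per gene was 1.65 to 19.9, so no 2 libraries agreed within sampling noise. Positions and the RNAs inside hosts come from GENCODE release 29.

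The members and gene lists were chosen with earlier results of these data known. Values in every library are given for hosts that passed in any comparison of all 12 libraries and for GAS5, SNHG1 and ZFAS1, and other hosts by group means. SNHG16 was added as the non-coding host with the highest mean normalized count that passed in no comparison of all 12 libraries. Small RNAs are named where they lie in such a host. List genes are named by the smallest p among those called with all 12 libraries, up to 4 a list. UPF1, FBL, DKC1, SCARNA13 and the neighbouring genes were named after their values were seen. So were SMG6, DDIT3, GADD45A, UPP1 and SNORA8, which were called only with control replicate 1 and BPS1 replicate 4 left out.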

Additional observations from a re-analysis of the deposited data

Results flagged for a closer look

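Within groups of 4, the highest or lowest library was compared with the gap to its nearest neighbour divided by the group's range (Dixon's 95% critical value), which chance passes in about 1 in 20 groups. Of 78 groups (26 hosts in 3 groups), 20 passed. BPS1 replicate 4 was the highest of its group in 12: GAS5 (12363, others 8539 to 8966), TAF1D (7873), SNHG5 (4611), SNHG7 (3991), SNHG15 (3787), SNHG17 (3500), DANCR (2771), ZFAS1 (2244, others 1502 to 1524), EPB41L4A-AS1 (1226), SNHG11 (521), SNHG19 (320.2) and SNHG9 (119, others 60.5 to 66.8).

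Control replicate 1 was the highest of its group in 3: SNHG12 (1148), SNHG11 (442) and SNHG19 (256). BPS2 replicate 1 was the lowest of its group in TAF1D (5464), SNHG17 (2472) and SNHG9 (104). BPS2 replicate 2 was the lowest in SNHG1 (5934, others 6509 to 6595) and SNHG25 (93.6, others 130 to 131). The genes are not independent of one another, and no cause was tested.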

How the results depend on the processing

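With all 12 libraries 4 hosts were called in BPS1 against control, 0 in BPS2 against control and 1 in BPS2 against BPS1. Leaving out each library in turn gave 2 to 9, 0 and 1 to 8 calls. Library weights gave 10, 1 and 13 calls, and leaving out control replicate 1 and BPS1 replicate 4 together gave 9, 5 and 13. Calls over all genes moved too. Single omissions called 556 to 1311 lower in BPS1, 77 to 355 higher in BPS2 and 277 to 1122 higher in BPS2 than in BPS1. Weights called 1783 of 20454 genes lower in BPS1, 788 higher in BPS2 and 2133 higher in BPS2 than in BPS1. The unweighted fit called 883, 168 and 470. Without the 2 libraries the shares were 7.33%, 5.78% and 10.5%. Without BPS1 replicate 4 alone, 1311 of 20341 genes were lower in BPS1 and 1122 higher in BPS2 than in BPS1. Fitting only the 2 groups compared gave 2 host calls in BPS1, where 468 of 19785 genes were called lower. Between BPS2 and BPS1, quantile scaling gave 2 host calls, and so did a GC correction and a GC and length correction per library, both chosen after seeing the data. Of 20454 genes, these fits called 510, 561 and 621 higher in BPS2 than in BPS1. The other settings (pseudocounts of 0.5 and 5, no filter, a filter at 50, median-of-ratios scaling, robust variance) stayed within 1.5 times each count. Of 4416 comparisons of single-gene results with an alternative, 4243 stayed on their side of the threshold, 87 lost a call and 86 gained one. A call was counted as reversed in 0. Fold changes without a call did change sign, as for SNHG10 in BPS1 against control (-0.14 to 0.19 over the 12 omissions). The causes were not tested.

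With the replicate number as a block, 2 hosts (SNHG3 and GAS5) were called in BPS1, 0 in BPS2 and 1 between BPS2 and BPS1. Of 20454 genes, that fit called 543 lower in BPS1, 81 higher and 37 lower in BPS2, and 273 higher in BPS2 than in BPS1. Deviations of same-numbered libraries correlated at -0.27 to 0.10, so the numbers were not taken to pair samples.

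The limits are scaled values that depend on isoform assignment, few reads for the small RNAs and 2 libraries that stand apart. A host that did not pass is not shown to be unchanged.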
